A study of Mus musculus with 74 samples.

Results

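The 10 genes described here encode proteins that coat the lipid droplets of the cell (Plin2, Plin4, Plin5), enlarge them (Cideb, Cidec), control the release of fat from them (G0s2, Pnpla2) or make the triglyceride that fills them (Agpat9, Dgat1, Dgat2). They were taken by gene symbol from an RNA-seq count table of mouse liver and, through the gene to which each peak had been assigned, from 11 ChIP-seq tables of tag counts per peak. All 10 were among the 14583 genes of the RNA-seq table and among the 12220 genes that passed its filter on low counts. They held 480 peaks over the 11 tables, between 21 and 71 peaks per table. Agpat9 stands in the ChIP-seq tables under its newer symbol Gpat3 and was matched there by its gene number. A peak carries the name of the gene with the nearest start site, and the tables do not show on which gene it acts.

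All libraries were from the liver of C57BL/6 mice that the labels give as 8 to 12 weeks old, which the study kept on chow diet. In the Gps2 line, LKO mice carried Gps2 flox/flox alleles and Cre under the albumin promoter, which is active in hepatocytes, and the controls called WT were Gps2 flox/flox mice of the same breedings without Cre. The Ncor and Smrt lines were liver-specific knockouts with their own WT groups, and the Ppara KO lacked PPARα in the whole body, from a B6;129S4 strain. RNA-seq compared 4 WT with 4 Gps2 LKO libraries. ChIP-seq covered GPS2, NCOR, PPARα, RNA polymerase II (Pol II) and the histone marks H3K27ac, found at active enhancers and promoters, and H3K4me3, found at promoters. For each protein or mark, KO was compared with the WT group of the same line, which asks whether binding or mark at these genes depends on Gps2, Ncor, Smrt or Ppara. The columns of the histone marks in the Gps2 line are headed as fed. The study's methods state that several ChIPs were combined for each ChIP-seq library. The methods call replicates biological, but nothing in the labels says that they were separate animals, and p-values measure the spread between these libraries.

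Hepatocytes store fatty acids as triglyceride in droplets bounded by a single layer of phospholipid. Glycerol-3-phosphate acyltransferases such as the product of Agpat9 begin the synthesis, DGAT1 and DGAT2 add the last acyl chain, perilipins cover the droplet, CIDE proteins join small droplets into large ones, and the lipase ATGL, the product of Pnpla2, opens the breakdown and is inhibited by G0S2. GPS2 is a subunit of the corepressor complex built around NCOR and SMRT, which nuclear receptors recruit to repress genes. PPARα is the nuclear receptor that switches on fatty acid oxidation genes of the liver when bound by fatty acids, and several perilipin and CIDE genes are known targets of PPAR receptors.

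RNA-seq libraries held 14.7 to 16.2 M counts (M, 1000000) in WT and 13.2 to 20.1 M in LKO, and the 64 ChIP-seq libraries held 7.90 to 46.1 M tags. ChIP-seq values below are tags in a peak per 10000000 total tags of the library. Gps2 RNA itself fell from 16.0 ± 0.72 counts per 1000000 (CPM; SD, n = 4) in WT to 11.2 ± 1.9 in LKO, a log2 fold change of −0.53 (adjusted p = 0.0021), and the source of what was left was not tested. The loss of Ncor or Smrt in their lines was not checked here. In bulk liver, fewer cells of a type and less RNA per cell cannot be told apart. In the Smrt line, the H3K27ac libraries of both genotypes had 249 to 289 tags at the Xist peak and 0 tags at 5 Y-linked peaks, against 2.93 to 4.92 and 306 to 371 in the Ncor line, although the mice are described as male. KO effects were taken against the WT of the same line, and between these lines, line and sex-linked signal cannot be told apart. The 3 PPARα WT libraries of the Gps2 line differed from each other by less than sampling noise (mean chi-square per peak 0.923 to 0.937, against 1.17 to 29.1 in other pairs) and were summed and counted as 1 sample in the test, so the spread came from the LKO libraries and the lone WT sample was assumed to vary like them. Their values are still given separately.

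PPARα sites near these genes are shown first. Of the 38 PPARα peaks assigned to the 10 genes in the Ppara line, 15 lost tags in Ppara KO. One such peak of each of 5 genes, centred outside annotated exons, is printed as the 200 bases around its centre on the plus strand of mm9. Capitals mark the stretch that comes closest on either strand to AGGTCA, any 1 base and AGGTCA again, the direct repeat that PPARα binds with its partner RXR. The Plin2 window lies 1.9 kb upstream of the start site at chr4:86317796-86317995, the Cidec window 3.1 kb upstream at chr6:113388762-113388961 and the G0s2 window 5.4 kb upstream at chr1:195104731-195104930, all 3 intergenic. The Plin4 window is in the promoter, 0.9 kb upstream at chr17:56250055-56250254, and the Agpat9 window in intron 3, 14.5 kb downstream of the start site at chr5:101289690-101289889.
Plin2: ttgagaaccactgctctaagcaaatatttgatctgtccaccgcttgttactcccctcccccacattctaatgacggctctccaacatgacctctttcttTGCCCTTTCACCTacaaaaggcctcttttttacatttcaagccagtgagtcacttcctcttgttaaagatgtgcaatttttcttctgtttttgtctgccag
Cidec: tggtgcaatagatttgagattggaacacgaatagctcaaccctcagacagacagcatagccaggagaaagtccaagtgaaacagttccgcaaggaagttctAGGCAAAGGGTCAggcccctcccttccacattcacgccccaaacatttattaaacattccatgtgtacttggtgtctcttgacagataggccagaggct
G0s2: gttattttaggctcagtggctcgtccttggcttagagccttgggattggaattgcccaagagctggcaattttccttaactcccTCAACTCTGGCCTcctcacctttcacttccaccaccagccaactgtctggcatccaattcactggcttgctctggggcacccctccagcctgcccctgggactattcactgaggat
Plin4: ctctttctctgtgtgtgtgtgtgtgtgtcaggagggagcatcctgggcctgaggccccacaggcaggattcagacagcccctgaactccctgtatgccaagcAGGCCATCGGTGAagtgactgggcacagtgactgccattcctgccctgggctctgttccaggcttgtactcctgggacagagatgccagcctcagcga
Agpat9: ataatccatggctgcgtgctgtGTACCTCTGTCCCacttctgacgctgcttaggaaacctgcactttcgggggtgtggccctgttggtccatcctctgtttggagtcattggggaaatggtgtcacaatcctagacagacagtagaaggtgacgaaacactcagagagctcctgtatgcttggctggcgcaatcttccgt
The capitals differ from the repeat at 2 of its 12 fixed letters in Plin2, at 3 in Cidec, G0s2 and Plin4, and at 4 in Agpat9. The strongest Plin2 site, 20.3 kb upstream, came no closer than 5 differing letters and is not printed. Of the Plin2 windows, the printed one had the fewest differing letters. Peaks outside exons that lost tags at Dgat2, 8.9 kb upstream, and Pnpla2, 0.6 kb downstream, each differed at 4 letters and are not printed either. The printed windows are thus a selection. A stretch with at most 3 differing letters was in 9 of the 15 windows that lost tags (60.0%), in 20 of the 38 windows of the 10 genes (52.6%) and in 43.2% of the 40214 windows of all PPARα peaks of that table. With at most 2 differing letters the shares were 13.3%, 18.4% and 14.0%. Such matches are letters in a window and not shown to be bound.

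With loss of Gps2 in hepatocytes, RNA of 7 of the 10 genes changed, or of 5 once a trend with exon length, described below, was removed. The 2 with the largest rise were G0s2, the inhibitor of ATGL, and Agpat9, an acyltransferase of triglyceride synthesis. Plin2, Cideb and Dgat2 rose by less, Plin4 and Pnpla2 fell, and Plin5, Cidec and Dgat1 did not pass the test. That is 5 of 10 higher and 2 of 10 lower at an adjusted p below 0.05 (edgeR quasi-likelihood test, Benjamini-Hochberg over 12220 genes), beside a background in which 23.4% of all genes were higher and 21.4% lower. The share of members called was thus 7 of 10 against 44.8% of all genes, and the median log2 fold change was 0.23 over the members and 0.03 over all genes. Groups that do not overlap, where named below, are given without the share over all genes or peaks and are not a call. In WT liver the levels per exon length, in reads per kilobase of exon and 1000000 reads (RPKM), ran from Dgat2 (261) over Cideb (178), Plin2 (97.0), Pnpla2 (29.0), G0s2 (24.7), Plin5 (16.9), Dgat1 (10.3), Plin4 (1.90) and Cidec (0.721) to Agpat9 (0.502). Neighbours in that order were apart in the 4 WT libraries, except Cidec and Agpat9, whose ranges overlapped.

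**Figure D1:**
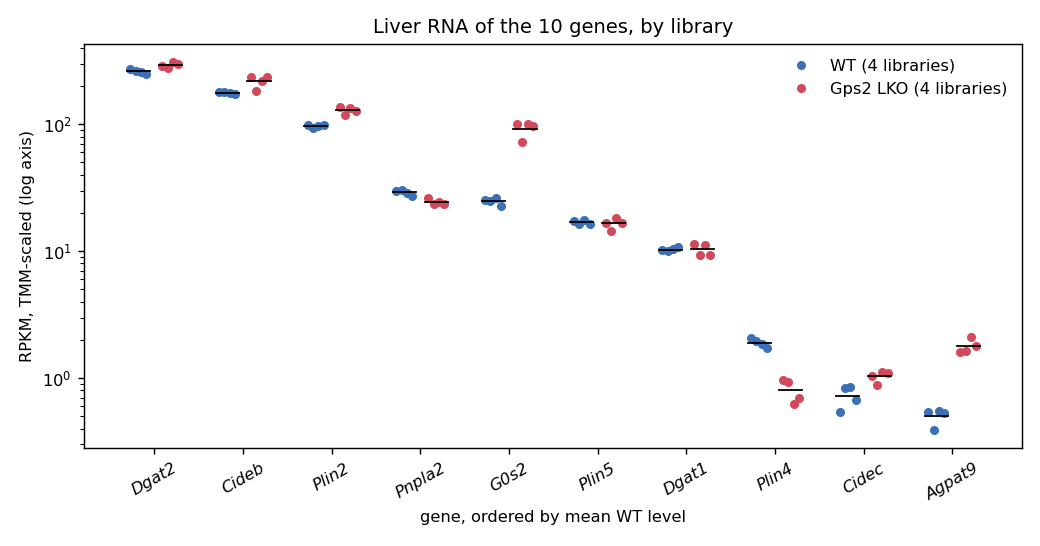
RNA level of the 10 genes in each library, in RPKM on a log axis, with WT in blue, Gps2 LKO in red and a bar at each group mean. G0s2 rose from a mean of 24.7 to 92.5 and Agpat9 from 0.502 to 1.78, whereas Plin4 fell from 1.90 to 0.806.

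Among the coat proteins, Plin2, which covers droplets in nearly all cells, had 187, 177, 183 and 185 CPM in WT and 257, 223, 252 and 241 CPM in LKO. The groups did not overlap, and Plin2 rose 1.33-fold (log2 fold change 0.41 ± 0.06 SE, adjusted p = 0.00013). Plin4, a coat protein with a long amphipathic repeat, had 11.8, 11.4, 10.6 and 10.0 CPM in WT and 5.53, 5.39, 3.59 and 4.03 CPM in LKO. All 4 LKO libraries were below all WT libraries, and Plin4 was 2.35-fold lower (log2 −1.23 ± 0.14, adjusted p = 1.1e-05). Plin5, which ties droplets to mitochondria in oxidative tissue, ranged from 33.3 to 35.8 CPM in WT and from 29.5 to 37.5 CPM in LKO, with overlapping groups and a difference of −0.03 ± 0.08 (95% interval −0.19 to 0.13, adjusted p = 0.80). Plin4 and Plin5 are neighbours on chromosome 17, and whether their changes differ was not tested.

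Of the CIDE genes, Cideb, the form made by healthy hepatocytes, had 211, 212, 207 and 204 CPM in WT and 275, 214, 255 and 275 CPM in LKO. Its groups did not overlap, the rise was 1.22-fold (log2 0.29 ± 0.07, adjusted p = 0.0073), and it was no longer called once the trend of fold change with exon length, described below, had been removed (0.03, adjusted p = 0.61). Cidec, the form that makes the large droplets of fat cells and fatty liver, was low, with 0.931, 1.43, 1.46 and 1.15 CPM in WT and 1.79, 1.53, 1.92 and 1.89 CPM in LKO. Every LKO library was above every WT library, yet the log2 difference of 0.50 ± 0.20 missed the threshold (adjusted p = 0.056). Without LKO replicate 2 it passed (0.56, adjusted p = 0.043), and over all fits without 1 library it ranged from 0.39 to 0.59.

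The pair that controls lipolysis moved in opposite directions. G0s2 had 21.3, 20.9, 22.0 and 19.0 CPM in WT and 84.5, 60.6, 84.6 and 82.2 CPM in LKO. Even the lowest LKO library was above the highest WT library by more than the range of the WT group, and the mean rose from 20.8 ± 1.25 to 78.0 ± 11.6 CPM (SD, n = 4), 3.74-fold (log2 1.90 ± 0.11, adjusted p = 1.2e-08). Over all genes tested, 121 had a larger absolute log2 fold change. Pnpla2, which encodes the lipase that G0S2 binds, had 81.2, 82.4, 77.4 and 74.5 CPM in WT and 71.1, 63.7, 66.4 and 64.1 CPM in LKO. The groups did not overlap, and Pnpla2 fell by 0.25 ± 0.07 on the log2 scale, or 15.9% (adjusted p = 0.0074).

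Of the synthesis genes, Agpat9, one of the enzymes that attach the first acyl chain to glycerol-3-phosphate, had 1.55, 1.13, 1.57 and 1.53 CPM in WT and 4.63, 4.73, 6.07 and 5.11 CPM in LKO. The groups were far apart although the gene is low, and the rise was 3.54-fold (log2 1.83 ± 0.16, adjusted p = 1.5e-06). Dgat1 had 19.3 to 20.7 CPM in WT and 18.01 to 22.1 CPM in LKO, with a difference of 0.00 ± 0.09 (95% interval −0.17 to 0.17, adjusted p = 0.996). Dgat2, the member with most RNA per length, rose from 588 ± 21 to 658 ± 30 CPM (log2 0.16 ± 0.06, adjusted p = 0.029). The Dgat2 groups did not overlap, but the call was lost without WT replicate 2, 3 or 4 or LKO replicate 3 or 4 (adjusted p up to 0.097) and after removal of the length trend (0.07, adjusted p = 0.17).

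**Figure D2:**
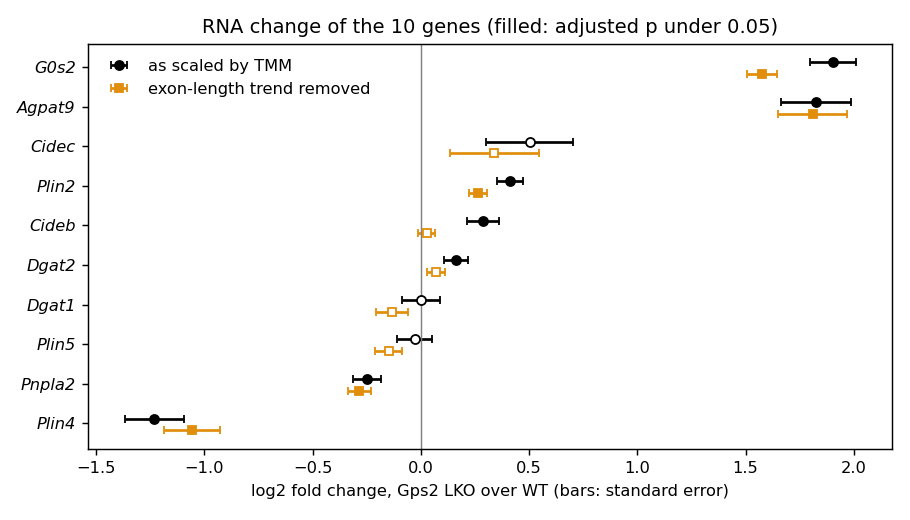
Log2 fold change of each gene in Gps2 LKO over WT with its standard error, as tested (black circles) and with the exon-length trend removed (orange squares), filled where the adjusted p was below 0.05. G0s2, Agpat9, Plin2, Plin4 and Pnpla2 were called both ways, Cideb and Dgat2 only as tested.

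Fold changes in this table moved with exon length. With the genes split by exon length into 4 bins of like size, their median was 0.24 in the shortest bin, 0.07 and −0.04 in the middle bins and −0.21 in the longest bin, with 41.3% of the shortest and 10.2% of the longest genes called higher. G0s2 has 0.84 kb of exons, Cideb 1.17 kb, Cidec 1.72 kb, Plin2 1.89 kb, Dgat1 1.93 kb, Plin5 2.04 kb, Dgat2 2.25 kb, Pnpla2 2.72 kb, Agpat9 2.88 kb and Plin4 5.76 kb. With the trend removed, 5 of the 10 members were called. Over all genes, the alternatives that kept every library called 5159 to 5738 genes, beside 5477 of 12220 as tested. That range includes the fit with the trend removed. RNA of other liver cells moved with the same contrast. All 5 stellate cell markers rose (summed 135 to 144 CPM in WT, 240 to 255 CPM in LKO), as did 5 of 6 Kupffer cell markers (110 to 112, then 141 to 170 CPM), 3 of 5 of cholangiocytes, 2 of 5 of endothelium and 2 of 2 of erythroid cells. Of 4 lymphocyte markers 1 was tested and it rose. Of 6 hepatocyte markers 3 rose, among them Alb, and 1, Hnf4a, fell. Of 8 fat cell markers, Adipoq, Lep, Retn, Plin1 and Cidea had no row in the table and Cfd was too low to test, while Fabp4, which macrophages and endothelium also express, rose by 1.13 on the log2 scale and Lipe fell by 0.60. The part of length or of other cells in the members' values was otherwise not tested.

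The genes closest to the 3 members with the largest changes were found by the root mean square difference of their log2 levels over the 8 libraries, each gene centred, among 12220 genes. G0s2 was closest to Tff3 (0.101), a secreted trefoil peptide, which had 22.9 CPM in WT and 88.5 CPM in LKO, and then to Sult1a1 (0.126), a sulfotransferase. Agpat9 was closest to Mthfd1l (0.141), an enzyme of mitochondrial one-carbon metabolism, and Cdc20 (0.145), a regulator of mitosis. Plin4 was closest to Il1r1 (0.142), the interleukin-1 receptor, and Nox4 (0.151), an oxidase, both of which fell.

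Beyond the 10 members, 44 genes of the same pathways were listed, of which 40 were tested, 16 rose and 9 fell, beside 23.4% of all genes that rose and 21.4% that fell. Of 8 tested genes for droplet coat and droplet-associated proteins, 1 rose and 4 fell. Hsd17b13, a droplet protein of hepatocytes, rose from 335 to 414 CPM (log2 0.30), whereas Fitm1 (−0.60) and Fitm2 (−0.35), which help droplets form at the endoplasmic reticulum, and Bscl2 (−0.31), which encodes seipin, and Hsd17b11 (−0.29) fell. Of 9 lipolysis genes 5 rose and 3 fell. Pnpla3, a relative of ATGL on the droplet, rose from 8.94 ± 1.1 to 59.5 ± 4.5 CPM (log2 2.73 ± 0.10), more than any member, while Lipe, the hormone-sensitive lipase, fell from 14.4 to 9.42 CPM (−0.60), and Abhd5, the activator of ATGL, did not pass the test (−0.06). Of 10 tested glycerolipid synthesis genes 3 rose and 7 did not pass the test. Lpin1, the phosphatidate phosphatase, rose from 614 to 779 CPM (0.34) and Agpat2 by 0.26 on the log2 scale, whereas Gpam, the main mitochondrial acyltransferase, was at 187 ± 5.1 CPM in WT and 247 ± 79 in LKO (adjusted p = 0.054). Of 9 genes for fatty acid uptake and activation 6 rose and 1 fell, led by the transporter Cd36 (0.80) and the fatty acid binding protein Fabp1 (0.74). Of 4 genes for VLDL assembly P4hb rose (0.15) and Apob fell (−0.82). Fabp1, with 0.49 kb of exons, and Apob, with 13.9 kb, moved in the direction of the length trend. Pnpla3, with 4.65 kb, and Fitm1, with 0.91 kb, moved against it. Values of these pathway genes with the trend removed are not given here. Hsd17b13, Bscl2, Hsd17b11, Abhd5 and Gpam were picked for mention after their values were seen.

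GPS2 was found at all 10 genes in WT liver of the Gps2 line, and nearly all of its tags were gone in LKO. The 39 GPS2 peaks of the members held 1391 tags in the WT library and 28 in the LKO library, 19 of them held 0 in LKO, and all 39 were lower at least 2-fold, as were 99.5% of all peaks in the table. This comparison had 1 library per genotype and no test, and 95% intervals (exact Poisson) cover counting error only. The strongest peaks were at the Plin5 start site (63.9 tags per 10000000 in WT, 0 in LKO, at least 31.5-fold lower against a limit of 3 tags in the library), 20.4 kb upstream of Plin2 (61.9 to 0, at least 30.5-fold), in Agpat9 14.6 kb from the start site (60.0 to 0, at least 29.6-fold) and 5.4 kb upstream of G0s2 (42.6 to 0, at least 21.0-fold). The genes with the least GPS2 at their strongest peak were Dgat1 (18.7 to 0.676) and Cideb (19.4 to 1.35). Of all tags, 7.07% lay in GPS2 peaks in WT and 0.31% in LKO. The 4 genes with the strongest sites thus included the 3 whose RNA rose most among the called members and Plin5, whose RNA did not pass the test. Summed over all peaks, however, Dgat2 held most GPS2 tags in WT (196, against 170 at Plin2, 109 at G0s2 and 97.4 at Agpat9). Its RNA rose by only 0.16 on the log2 scale. Cidec, which was not called, had a larger RNA estimate (0.50) than Plin2 (0.41).

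Merging the 8 tables of GPS2, NCOR and PPARα peaks gave 91 sites at the 10 genes, 36 of them in 6 or more tables and 20 in all 8. Each of the 10 genes had at least 1 site found in all 8. These included sites 20.4, 1.9 and 1.1 kb upstream of Plin2, 5.4 and 1.4 kb upstream of G0s2, 14.5 and 50.2 kb inside Agpat9, 3.1 kb upstream of Cidec and 8.9 kb upstream of Dgat2. The start site itself was a site in all 8 tables at Plin2, Plin5, Cideb, Agpat9 and Dgat1. Dgat2 had most sites (25) and Plin5 fewest (2).

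Binding of PPARα at these genes fell in Ppara KO, which lacks the protein and so serves as the control of the antibody. Of the 38 peaks, 15 were lower, at 8 of the 10 genes, beside 27.6% of all peaks that were lower (edgeR, 2 against 2 libraries). Total tags set the scale, the table as a whole shifted by −1.68 on the log2 scale (its median), and changes relative to that shift are given beside the plain ones. Plin2 at 20.3 kb upstream had 41.8 and 55.1 tags per 10000000 in WT and 1.37 and 2.20 in KO. That site fell by 4.70 ± 0.38 on the log2 scale (−3.02 relative to the shift, adjusted p = 2.9e-06), the largest fall of any member peak in this table. The G0s2 site 5.4 kb upstream had 31.1 and 33.7 tags in WT and 1.37 and 2.20 in KO (−4.12, relative −2.44), and the Agpat9 site at 14.5 kb had 39.6 and 31.4 against 2.75 and 2.93 (−3.61, relative −1.93). The Plin5 start site went from 33.3 and 24.5 tags to 1.37 and 2.93 (−3.71, relative −2.03). At all 4 sites no KO library was above 2.93 tags.

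The weaker sites shown above by their sequence were chosen among the peaks that fell. The Plin2 site 1.9 kb upstream had 17.7 and 19.9 tags in WT and 3.43 and 2.20 in KO (−2.69, adjusted p = 0.0004). At Cidec, the site 3.1 kb upstream had 19.8 and 15.3 against 2.06 and 4.40 tags (−2.43) and the site 7.5 kb downstream 25.5 and 26.8 against 2.06 and 1.47 (−3.81). The Plin4 promoter site had 12.0 and 9.18 against 0.687 and 2.20 tags (−2.83, adjusted p = 0.0061). The remaining lower peaks were 1.0 kb upstream of Plin2, 1.3 kb upstream of G0s2, in Pnpla2 (0.6 kb), Agpat9 (50.2 kb) and Dgat2 (8.9 kb upstream, 12.0 and 14.5 kb downstream). No peak of Cideb or Dgat1 was called, where WT held at most 7.65 and 1.53 tags. The called Pnpla2 peak was itself weak, with a mean of 4.12 tags in WT and 0.343 in KO. All 15 calls were lost without WT replicate 1 or WT replicate 2, which leaves 1 WT library, and 5 remained under TMM scaling, which removes the shift of the table: Plin2 at 20.3 kb, Plin5, Cidec at 7.5 kb, G0s2 at 5.4 kb and Agpat9 at 14.5 kb.

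**Figure D3:**
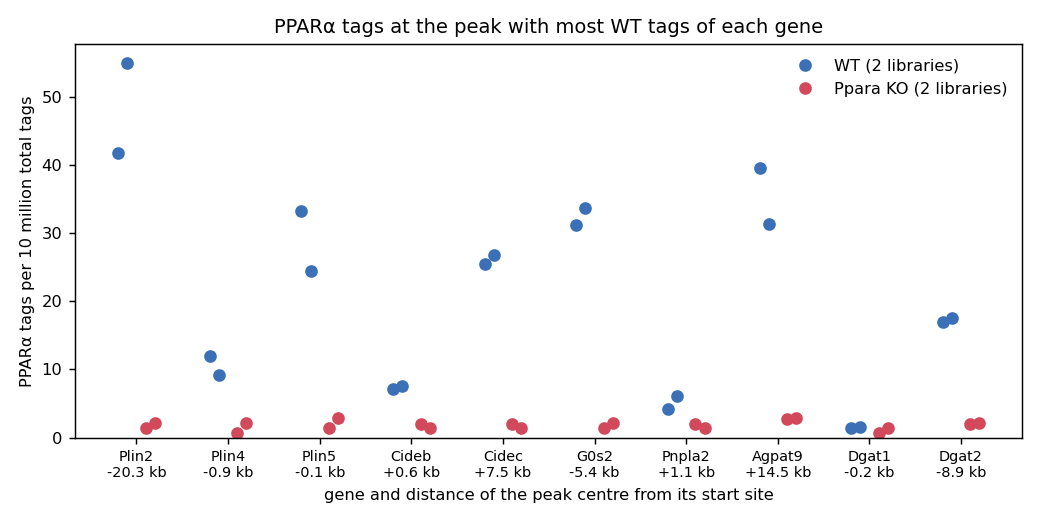
PPARα tags per 10000000 total tags at the peak with most WT tags of each gene, for 2 WT (blue) and 2 Ppara KO libraries (red). WT libraries ranged from 1.42 tags at Dgat1 to 55.1 at Plin2, and KO libraries stayed at or below 2.93 at all 10 peaks.

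NCOR, the corepressor to which GPS2 belongs, also lost tags in Ppara KO. Of 71 NCOR peaks 11 were lower, beside 2.51% lower in the whole table, and all 11 were at Plin4, Agpat9 and Plin2. The table shifted by −0.32. Plin4 led, with 27.6, 15.5 and 33.7 tags in WT and 4.09, 6.73 and 2.13 in KO at 3.0 kb upstream, inside an intron of the neighbouring Plin5 (−2.53 ± 0.42, relative −2.21, adjusted p = 7.0e-07) and 16.3, 16.3 and 22.7 against 4.09, 6.73 and 1.42 at 1.0 kb upstream (−2.14). At both sites every KO library was below every WT library. A total of 5 of the 6 NCOR peaks of Plin4 were called, the others at 0.4, 0.9 and 10.4 kb downstream of the start site (−2.07, −0.94 and −1.50), the last of them past the end of the gene.

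At Agpat9, NCOR at the site 14.6 kb inside the gene fell from 84.5, 83.4 and 99.4 tags in WT to 40.1, 41.7 and 34.9 in KO (−1.19 ± 0.23, relative −0.87, adjusted p = 5.5e-05). At 54.0 kb it fell from 18.7, 17.2 and 24.4 to 6.54, 5.39 and 2.85 (−2.02), at the promoter from 26.0, 27.5 and 38.8 to 11.4, 18.2 and 11.4 (−1.15), and at 18.4 kb by 1.55 on the log2 scale with overlapping groups. Plin2 lost NCOR at 1.9 kb upstream (50.4, 39.6 and 44.7 against 34.3, 16.8 and 14.2 tags, −1.06) and at 16.1 kb upstream (−1.22), yet the stronger site 20.4 kb upstream had 102, 83.4 and 110 tags in WT and 87.5, 96.9 and 68.3 in KO, overlapping, with −0.23 ± 0.19 (adjusted p = 0.58). The groups also overlapped at the G0s2 site 5.4 kb upstream (99.97, 79.98 and 99.4 against 78.5, 89.5 and 59.1 tags), at the Cideb start site (98.3, 105 and 104 against 105, 106 and 79.0 tags) and at the Plin5 start site (70.7, 84.3 and 80.04 against 48.2, 74.7 and 46.3 tags, −0.47, adjusted p = 0.28). The count of 11 fell to 7 without WT replicate 1, 4 without WT replicate 3, 5 without KO replicate 1 or 3 and to 4 with DESeq2, and TMM scaling gave 4 lower and 2 higher. The calls at Plin4 3.0 and 1.0 kb upstream and at Agpat9 14.6 and 54.0 kb were kept in every one of these.

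GPS2 binding in Ppara KO was lower at all 28 member peaks by its estimate, and 0 were called (8 at an unadjusted p below 0.05), beside 0.273% of all peaks called lower. The table's median shifted by −0.93 and that of the members by −1.06. Of all tags, 2.42% to 4.39% lay in peaks in WT and 1.07% to 2.06% in KO. WT and KO were thus apart over the table as a whole, not only at the sites named here. Agpat9 moved most, with 18.7, 18.2 and 33.9 tags in WT and 7.28, 2.27 and 6.49 in KO at 14.6 kb (−2.11 ± 0.60, relative −1.18, adjusted p = 0.071) and 7.63, 9.10 and 19.2 against 4.37, 2.27 and 1.44 at the start site (−2.11, adjusted p = 0.12). At both, as at the Plin5 start site (39.5, 21.4 and 48.5 against 10.2, 13.6 and 7.93 tags, −1.78), the G0s2 site 5.3 kb upstream (20.1, 18.2 and 33.9 against 9.47, 6.81 and 5.77, −1.69) and the Plin2 site 20.4 kb upstream (24.3, 18.9 and 36.9 against 7.28, 12.9 and 3.61, −1.74), the groups did not overlap. At the G0s2 and Plin2 start sites they overlapped, with 14.6, 12.35 and 42.3 against 16.7, 24.97 and 18.7 tags at G0s2. DESeq2 called 2 of the 28, Agpat9 at 14.6 kb and the Plin5 start site.

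Loss of Ncor lowered the estimate of GPS2 binding at 47 of 51 member peaks, again with 0 called (23 at an unadjusted p below 0.05; lowest adjusted p = 0.076) beside 0.0338% of all peaks called lower. Of all 56278 peaks tested, 19323 had an unadjusted p below 0.05. The table shifted by −1.12 and the median of the members by −1.19, with 27 of the 51 below the table's median. At the G0s2 site 5.4 kb upstream, WT had 61.9, 61.5 and 20.9 tags and LKO 11.3, 11.2 and 7.79, which did not overlap (−2.24 ± 0.64, relative −1.12). The Plin2 site 20.4 kb upstream had 77.4, 53.2 and 17.1 against 11.8, 15.9 and 12.99 tags, and the Agpat9 site at 14.5 kb 75.7, 69.0 and 29.5 against 18.7, 23.6 and 23.4. At these sites, WT replicate 3 lay closer to the LKO libraries than to the other WT libraries. Its share of tags in peaks was 3.07%, against 7.82% and 8.23% in the other WT libraries and 2.45% to 3.15% in LKO, and without it 35 of the 51 were called lower, beside 33472 of the 56278 peaks of the table called in either direction. DESeq2 called 13 with all libraries, beside 7963 of the table.

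The reverse comparisons gave no called member. NCOR binding in Gps2 LKO was called at 0 of 59 peaks (1 at an unadjusted p below 0.05, 0 by DESeq2), beside 0.0173% of all peaks in either direction. At the Plin2 site 20.4 kb upstream NCOR had 92.7, 88.7 and 61.4 tags in WT and 98.6, 115 and 47.2 in LKO, and at the Agpat9 site at 14.6 kb 66.5, 66.2 and 43.5 against 48.3, 86.9 and 32.5. At both, LKO libraries lay above and below all WT libraries. PPARα binding in Ncor LKO was called at 0 of 61 peaks (2 at an unadjusted p below 0.05, 0 by DESeq2), beside 0.196% of all peaks, with 97.5, 97.7 and 57.1 against 69.6, 64.6 and 104 tags at the G0s2 site 5.4 kb upstream and 122, 114 and 54.7 against 90.1, 94.96 and 129 at the Agpat9 site at 14.5 kb. Without WT replicate 3, 1 peak was called.

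PPARα in Gps2 LKO had more tags at most member peaks, and so did the table as a whole. Of 61 member peaks 13 were higher (edgeR, WT libraries as 1 sample against 3 LKO), a share like the 21.5% of all peaks that were higher, and the median log2 fold change of the members, 0.45, lay below the table's shift of 0.62. The share of tags that fell in peaks was 19.2% to 21.9% in WT and 28.9% to 32.1% in LKO. Agpat9 at 54.1 kb, one of the sites that lost NCOR in Ppara KO, had an estimate above the shift, with 12.7, 14.2 and 14.7 tags in WT and 45.97, 37.9 and 40.5 in LKO (1.56 ± 0.33, relative 0.94, adjusted p = 0.00017). The estimate was also above the shift for Plin2 12.7 kb downstream (3.80, 3.80 and 7.89 against 10.3, 21.8 and 18.2, relative 1.11) and for a weak Agpat9 peak at 70.9 kb (relative 0.95). No PPARα peak of the Ppara line lay at any of these places, so the antibody control does not cover them.

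The other 10 called PPARα peaks were only 0.10 to 0.28 above the table's shift. They lay at the Agpat9 start site (26.6, 18.05 and 21.4 against 37.9, 40.7 and 38.1 tags) and 0.2 kb into the gene, 11.9 kb upstream of Plin2, 1.4 kb upstream of Plin4, 0.9 kb into Cidec, at the Dgat1 promoter and at 4 places in or near Dgat2. The strong sites that lost most PPARα in Ppara KO were not called here. The G0s2 site 5.4 kb upstream had 142, 142 and 156 tags in WT and 186, 191 and 151 in LKO (0.26 ± 0.25, relative −0.36) and the Agpat9 site at 14.5 kb 144, 132 and 145 against 218, 208 and 164 (0.48 ± 0.25, relative −0.13, adjusted p = 0.14), where the groups did not overlap. The adjusted p tests a change from 0, not from the shift. Under TMM scaling, which takes the table's shift out, 0 of the 61 were called, and DESeq2 called 1, Agpat9 at 54.1 kb. Counting the 3 WT libraries separately gave 24, and 7 and 4 were left without LKO replicate 2 and 3.

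**Figure D4:**
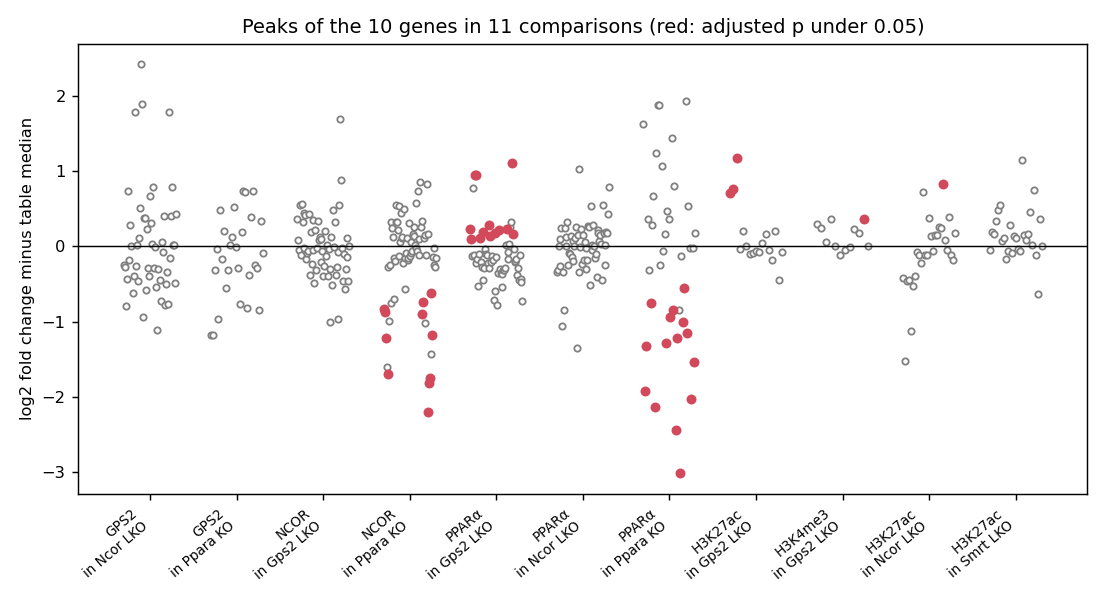
Log2 fold change of each member peak, KO over WT, after subtraction of the table's median, for the 11 comparisons with replicates, with called peaks in red and spread sideways only for legibility. Called falls lie in the Ppara KO columns of NCOR and PPARα, reaching −3.02, while 10 of the 13 called PPARα peaks in Gps2 LKO lie between 0.10 and 0.28.

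H3K27ac in Gps2 LKO was higher at 3 of the 17 member peaks tested, out of 24 in the table, beside 1.21% of all peaks higher, and all 3 were in Agpat9. At 0.6 kb into the gene WT had 114 and 141 tags and LKO 212 and 224 (log2 0.77 ± 0.12, adjusted p = 0.032), at 16.4 kb 96.7 and 108 against 164 and 197 (0.82 ± 0.13, adjusted p = 0.031), and at 51.8 kb 136 and 104 against 249 and 311 (1.23 ± 0.16, adjusted p = 0.018). No LKO library overlapped WT at these. The largest rise was at the distal region near the site at 50.2 kb that lost PPARα in Ppara KO and the site at 54.0 kb that lost NCOR there. A further Agpat9 peak at 71.4 kb was at 18.4 and 11.2 against 15.0 and 14.6 tags. G0s2, whose RNA rose as much, had 925 and 853 tags in WT and 1000.3 and 1066 in LKO (0.22 ± 0.08, adjusted p = 0.28), and the Plin2 domain 1114 and 1111 against 1327 and 1337 (0.26 ± 0.08, adjusted p = 0.16). A peak in Plin4, whose RNA fell, went from 147 and 156 to 106 and 126 tags (−0.39 ± 0.12, adjusted p = 0.19). Calls at Agpat9 were lost without WT replicate 1 or 2, and under TMM scaling only the one at 51.8 kb remained.

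**Figure D5:**
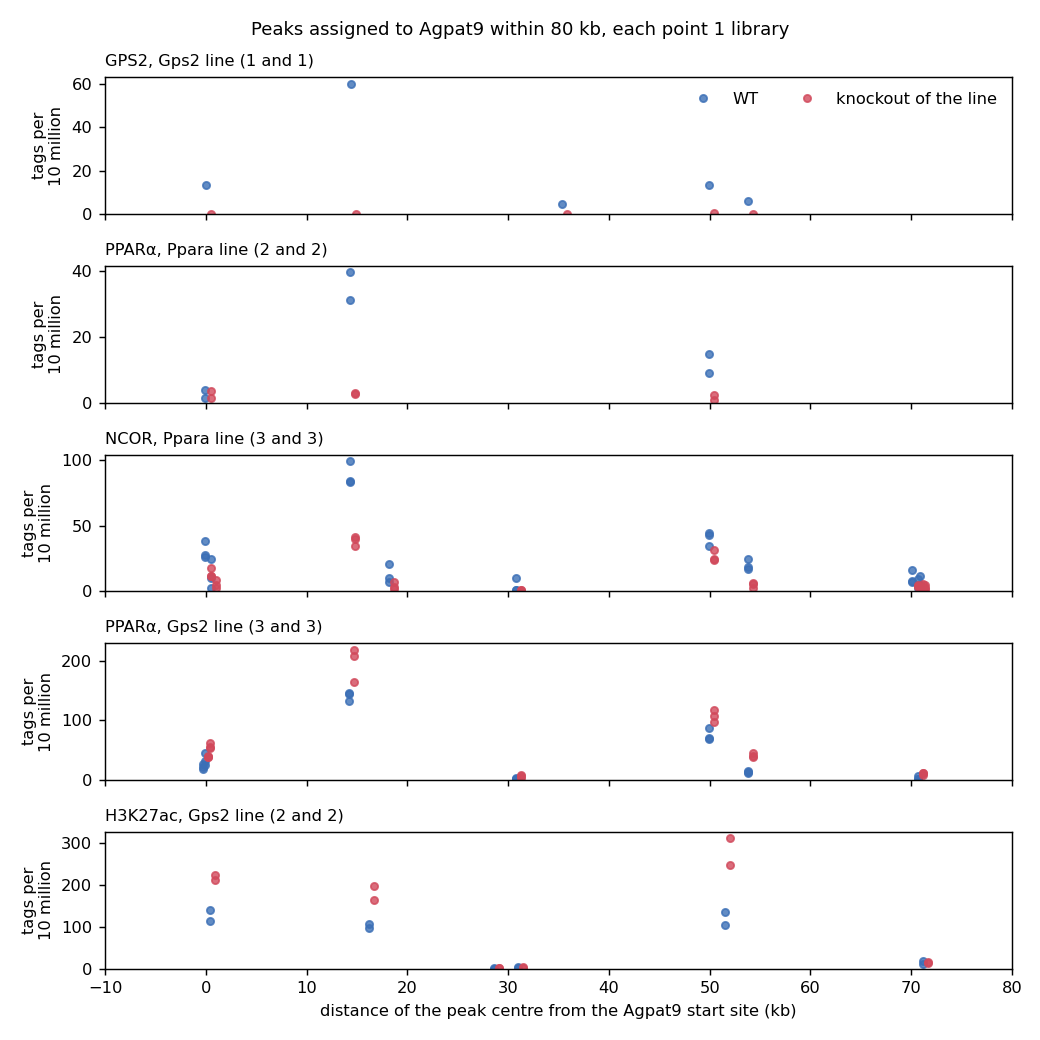
Tags per 10000000 at each peak within 80 kb of the Agpat9 start site, plotted by distance in kb, for WT (blue) and the knockout of the line (red) in 5 tables, with 1 point per library and the genotypes drawn slightly apart. Near 14.5 kb NCOR and PPARα fell in Ppara KO, and H3K27ac rose in Gps2 LKO at 0.6, 16.4 and 51.8 kb.

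H3K4me3 in Gps2 LKO was higher at 1 of 12 member peaks tested, the Plin2 domain (800 and 788 against 1097 and 1004 tags, 0.40 ± 0.07, adjusted p = 0.0091), beside 0.798% of all peaks higher. The promoters of the 2 genes with most RNA gain were close behind without a call. G0s2 had 807 and 778 tags in WT and 943 and 967 in LKO (0.27 ± 0.06, adjusted p = 0.077), and Agpat9 420 and 403 against 504 and 534 (0.33 ± 0.07, adjusted p = 0.056). The Plin2 call was lost without WT replicate 2 or LKO replicate 1 and when every peak of the table was tested.

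Pol II, with 1 library per genotype and no test, was at least 2-fold higher at 2 of 21 member peaks, both weak and upstream of Dgat2, beside 7.57% of all peaks. At the G0s2 start site, where RNA rose most, Pol II had 275 tags in WT and 288 in LKO (ratio 1.04, 95% interval 0.894 to 1.22 for counting error), and at the Agpat9 start site 63.5 and 79.0 (1.25, 0.908 to 1.71). Larger ratios were at Dgat2 14.4 kb into the gene (45.5 and 78.2, ratio 1.72, 1.22 to 2.46), at Cidec 3.2 kb upstream (51.5 and 82.4, ratio 1.60, 1.15 to 2.25) and at the Dgat1 start site (86.6 and 126, ratio 1.46, 1.12 to 1.89). RNA of Cidec and Dgat1 was not called.

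In the Ncor line H3K27ac was higher at 1 of 27 member peaks, 11.8 kb upstream of Plin2 (64.1, 49.6 and 40.3 against 95.2, 97.1 and 79.8 tags, 0.82 ± 0.18, adjusted p = 0.038), beside 2.32% of all peaks higher, and this call was lost without WT replicate 2 or 3 or LKO replicate 2 or 3. At Agpat9 the values lay on the other side. The peak 1.0 kb into the gene had 121, 158 and 146 tags in WT and 110, 106 and 103 in Ncor LKO, which did not overlap (−0.42 ± 0.13, adjusted p = 0.13), and the peak at 14.8 kb 64.4, 92.5 and 92.4 against 53.6, 64.7 and 62.7, which overlapped (−0.46, adjusted p = 0.20). In the Smrt line 0 of 27 were called, as in the whole table (0%), with 3 member peaks and 4079 of all peaks at an unadjusted p below 0.05, and DESeq2 called 68 peaks, none of them at a member. A weak peak 10.6 kb upstream of G0s2 had 5.84, 4.91 and 7.71 tags in WT and 10.8, 15.1 and 15.3 in Smrt LKO (1.16 ± 0.26, adjusted p = 0.83). The Ncor effect minus the Smrt effect was called at 0 of 27 member peaks (6 at an unadjusted p below 0.05, 0 by DESeq2), beside 0.426% of all peaks. These lines also differed in sex-linked signal, as given above, which this difference cannot separate from the gene lost. The WT groups of these lines themselves differed, with 6 of the 27 member peaks higher and 2 lower in the Smrt line than in the Ncor line, beside 12.9% higher and 9.45% lower of all peaks.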

How the data were processed

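The authors deposited RNA-seq read counts per gene, made from polyA libraries, for which the methods name HISAT2 and mm9. The exon positions given with these counts match the newer build GRCm38 (first exon start within 1000 bp for 13154 of 14562 genes). The build and tools behind the RNA counts are therefore unsettled. The authors also deposited ChIP-seq tag counts per merged peak, made with Bowtie2 and HOMER on mm9 (no versions were found). Columns with the authors' own fold changes and p-values were not used, nor were the input libraries, and 0 value columns were left out of the mapping. RNA-seq counts were scaled by TMM after filterByExpr and ChIP-seq tags by the total tags in the deposited headers, and both were tested with edgeR 4.0.16 (quasi-likelihood, R 4.3.3) with Benjamini-Hochberg adjustment over all genes or peaks. A call is an adjusted p below 0.05. ChIP-seq peaks needed at least 1 tag, and histone peaks of the Gps2 line had to be in the lists of at least 2 libraries. Comparisons of 1 library with 1 were not tested, and a change of at least 2-fold is given in its place. DESeq2 1.42.0, other scalings, other filters, removal of an exon-length trend, a replicate block and leaving out each library were the alternatives. The scripts were tested on simulated data with 200 changed features. All 10 members are named for RNA. In the ChIP-seq comparisons every called peak is mentioned, but the uncalled peaks named are a selection, and members left unnamed enter only the counts. For other pathway genes, the 2 with the largest change among those called per role are named. The members and lists were chosen with earlier results of these data known, and the comparison of WT groups between lines was chosen after seeing the data. Replicate numbers are not said to mark animals, litters or days. Counting intervals and limits cover counting error only.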

Additional observations from a re-analysis of the deposited data

Results flagged for a closer look

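Of 20 groups of 4 RNA-seq libraries, 2 had a library far from the others, where chance gives about 1 in 20 groups. G0s2 in Gps2 LKO was at 60.6 CPM in replicate 2 and at 82.2, 84.5 and 84.6 CPM in the others (gap over range 0.898). Agpat9 in WT was at 1.13 CPM in replicate 2 and at 1.53, 1.55 and 1.57 CPM in the others (0.902). Neither value lay near the other genotype. Over all genes, LKO replicate 2 also stood apart. Its mean chi-square per gene was 29.1, 19.8 and 25.3 against LKO replicates 1, 3 and 4. Among those it was 1.53 (1 and 4), 9.87 (1 and 3) and 9.14 (3 and 4), and the cause was not tested.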

How the results depend on the processing

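The RNA call at G0s2, Agpat9, Plin2, Plin4 and Pnpla2 held with the length trend removed, and the number of members called ranged from 6 to 8 when 1 library was left out. Near 0, the estimate changed sign for Plin5 without LKO replicate 2 (0.016, with a range of −0.084 to 0.016 over such fits) and for Dgat1 in 4 such fits (range −0.053 to 0.038), and under TMM scaling for NCOR 20.4 kb upstream of Plin2 in Ppara KO (0.078) and for PPARα in Gps2 LKO at G0s2 (−0.35) and Agpat9 14.5 kb (−0.13). Counts of member peaks called changed as follows. TMM scaling gave 2 for GPS2 in Ncor LKO (1 higher, 1 lower), 6 for NCOR in Ppara KO (2 higher, 4 lower), 0 for PPARα in Gps2 LKO, 5 for PPARα in Ppara KO, 1 for H3K27ac in Gps2 LKO, 19 for GPS2 in Gps2 LKO and 1 for Pol II. DESeq2 gave 13 for GPS2 in Ncor LKO, 2 for GPS2 in Ppara KO, 4 for NCOR in Ppara KO and 1 for PPARα in Gps2 LKO. A stricter filter on low tags gave 2 for GPS2 in Ncor LKO and 1 for GPS2 in Ppara KO, peaks in at least 2 lists gave 1 for the latter, testing all peaks gave 0 for H3K4me3, a fit of 12 libraries gave 2 for H3K27ac in Ncor LKO (1 higher, 1 lower), and the 3 WT libraries kept separate gave 24 for PPARα in Gps2 LKO. Leaving out 1 library gave 0 to 35 for GPS2 in Ncor LKO, 4 to 12 for NCOR in Ppara KO, 4 to 14 for PPARα in Gps2 LKO, 0 to 1 for PPARα in Ncor LKO, 0 to 14 for PPARα in Ppara KO, 0 to 3 for H3K27ac in Gps2 LKO, 0 to 1 for H3K4me3 in Gps2 LKO and for H3K27ac in Ncor LKO, and 5 to 7 for the WT groups of both lines. The cause was not tested, except that fewer libraries give less power and TMM removes the shift of a table. Same-numbered libraries correlated between −0.146 and 0.269 over 11 comparisons. With 2 libraries per group these values mirror each other by construction, and they cannot decide whether numbers pair libraries. A replicate block gave 15 for GPS2 in Ncor LKO, 5 for NCOR in Ppara KO, 0 for PPARα in Ppara KO and 3 for H3K4me3 in Gps2 LKO, kept the number of RNA calls at 7, and could not be run for PPARα in Gps2 LKO with the WT libraries as 1 sample.

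Over all peaks and under alternatives other than leaving out 1 library, counts of calls moved from 19 to between 29 and 10541 for GPS2 in Ncor LKO, from 76 to 0 to 196 for GPS2 in Ppara KO, from 14 to 8 to 359 for NCOR in Gps2 LKO, from 3042 to as few as 1088 for NCOR in Ppara KO, from 22237 to 998 to 37826 for PPARα in Gps2 LKO, from 169 to 0 to 1496 for PPARα in Ncor LKO and from 11119 to 0 to 7357 for PPARα in Ppara KO. For histone marks they moved from 668 to 382 to 2464 and from 209 to 32 to 701 for H3K27ac and H3K4me3 in Gps2 LKO, from 2145 to 1143 to 3395 in Ncor LKO, from 0 to as many as 68 in Smrt LKO and from 293 to 69 to 1227 for their difference. Leaving out 1 library gave 0 to 33472 for GPS2 in Ncor LKO, 2 to 68 for GPS2 in Ppara KO, 0 to 78 for NCOR in Gps2 LKO, 1207 to 2855 for NCOR in Ppara KO, 10156 to 24801, 5 to 835 and 0 to 8839 for PPARα in Gps2 LKO, Ncor LKO and Ppara KO, 0 to 3006 and 110 to 236 for H3K27ac and H3K4me3 in Gps2 LKO, 397 to 2560 in Ncor LKO, 0 to 2 in Smrt LKO and 51 to 372 for the difference. Values of a few tags per 10000000, as at Dgat1 for PPARα, are limited by depth.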

Other observations

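H3K27ac at several members differed between the WT groups of the Smrt and Ncor lines, a comparison chosen after seeing the data. The test was edgeR with 3 against 3 libraries. The Agpat9 peak at 51.1 kb had 132, 169 and 184 tags per 10000000 in WT of the Ncor line and 793, 698 and 803 in WT of the Smrt line, 4.73-fold higher (log2 2.24 ± 0.24, adjusted p = 2.35e-05). The peak 1.0 kb into Agpat9 had 121, 158 and 146 against 339, 341 and 371 tags, 2.46-fold higher (1.30 ± 0.10, adjusted p = 1.5e-06). No library of either line overlapped the other at these. The domain over Plin4 and Plin5 was lower in the Smrt line, with 2652, 3242 and 2987 against 1771, 2029 and 1124 tags (−0.85 ± 0.17, adjusted p = 0.0030), and so was Cidec, with 1548, 1560 and 1397 against 966, 1046 and 989.7 tags (−0.59 ± 0.08, adjusted p = 0.00012). The lines also differed in their signal at Xist and Y-linked peaks, given above, and line, sex-linked signal and batch cannot be told apart.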
